A study of Mus musculus with 6 samples.

Results

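Glutathione is built from glutamate, cysteine and glycine, is consumed and regenerated in redox reactions, and is broken down again outside the cell. The 10 genes described here encode steps of that cycle, namely Gclc, Gclm, Gss, Gsr, Gpx1, Gpx4, Ggt6, Ggct, Slc7a11 and Oplah. They were chosen by name from 24411 gene rows, and each had 1 row. Liver RNA came from 3 wild-type (p62+/+) and 3 knock-in (p62S351E/+) mice at postnatal day 19, and the RNA-seq comparison asks how the phosphomimetic allele alters liver transcripts. The p62S351E/+ mice carry, on 1 allele of Sqstm1 (the gene encoding p62), Glu in place of Ser351, and the other allele is wild type. The allele was made by prime editing in C57BL/6N-derived embryonic stem cells, and the line goes back to a single male chimera with low chimerism. The knock-in is present in all cells rather than in hepatocytes alone, and the study describes growth retardation of these mice. The labels give neither sex nor batch.

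The estimated counts summed to between 8696712 and 10341622 per mouse, but Rn45s, Lars2 and Mir6236 took all except 1.30% to 3.30% of them, which limits the precision for every gene below. The libraries labelled p62S351E/+ 1 and 2 stood apart from the other 4. They had the lowest counts outside these 3 genes, 134911 and 231631 (1.30% and 2.25% of their totals, where the other 4 had 3.01% to 3.30%). The 10 brain markers such as Snap25 and Gfap summed to 2094 to 2435 counts in the p62+/+ mice and 2280 counts in p62S351E/+ mouse 3, but to 3 and 6 counts in p62S351E/+ mice 1 and 2, where Snap25 and Gfap were at 0. Xist was at 70.8, 1505 and 1071 counts in the p62+/+ mice and at 1, 0 and 1537 counts in the p62S351E/+ mice. Of the 10 hepatocyte markers each was detected in both genotypes, although Ass1 was at 0 in p62+/+ mice 1 and 2 and p62S351E/+ mouse 1. As shares of the counts outside the 3 genes, the hepatocyte markers summed to 5.42% to 6.03% in p62+/+ mice and 5.65% to 9.93% in p62S351E/+ mice. The share of Kupffer cell markers was 0.0334% to 0.0383% and 0.0396% to 0.0504%, that of stellate cell markers 0.0678% to 0.117% and 0.0345% to 0.0549%, and that of erythroid markers 0.0591% to 0.0840% and 0.0240% to 0.0525%. Genes within these lists did not move together. Marco had 1, 1 and 3 counts in p62+/+ mice, against 12, 10 and 22 in p62S351E/+ mice. Clec4f, also a Kupffer cell marker, was lower in every p62S351E/+ mouse by normalized counts. The log2 fold change of Col3a1 was -1.94 and that of Reln 0.05 (stellate cell markers). Among erythroid markers, Hba-a1 was at -1.81 and Hbb-bt at 0.24. The part of depth, Xist and these cell types in the results was not tested, except where a value is given. Log2 fold changes of the tested genes among the 10, and of the gene lists further below, are therefore also given for p62S351E/+ mouse 3 alone. It was the only mutant library with brain transcripts near the p62+/+ level. These values come with no test, since 1 mouse has no spread of its own. In RNA from whole liver, fewer cells of a type and less RNA per cell cannot be told apart.

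As background, glutamate-cysteine ligase, a heterodimer of a catalytic subunit (Gclc) and a modifier subunit (Gclm), joins glutamate to cysteine in the rate-limiting step, and glutathione synthetase (Gss) adds glycine. Peroxidases such as Gpx1 and Gpx4 oxidize glutathione while reducing peroxides, and glutathione reductase (Gsr) returns it to the reduced form with NADPH. The liver is the main source of circulating glutathione, and several genes of the cycle are known targets of the transcription factor NRF2, which binds antioxidant response elements and is released when phosphorylated p62 engages KEAP1.

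The core of the antioxidant response element, TGACNNNGC, was searched on both strands from 250 bases before to 50 bases after each RefSeq start in GRCm38.p6. It was found in 12.4% of 32851 promoters and in 14.0% of 27025 genes. RefSeq promoter entries were matched for 7 of the 10 genes, and 2 of them, Gclm and Ggct, held a match. No entry was matched for Gclc, Gsr and Oplah. The Gclm window lies on chromosome 3 at chr3:122245373-122245472 on the plus strand, with the match on the opposite strand and its first base at position -134 from the start of its promoter entry. The Ggct window lies on chromosome 6 at chr6:54992992-54993091 on the minus strand, with the match again on the opposite strand and its first base at -174. A second match in Ggct had its first base at position 6 from the start of the same entry. These positions hold for the entries searched, since both genes have other annotated starts. The windows are shown for Gclm and Ggct because only these 2 of the 7 genes held a match, whatever their expression. Capitals mark the match as it reads on the gene's strand.
Gclm promoter: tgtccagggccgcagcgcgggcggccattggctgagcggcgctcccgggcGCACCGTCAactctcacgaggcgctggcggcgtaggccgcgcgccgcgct
Ggct promoter: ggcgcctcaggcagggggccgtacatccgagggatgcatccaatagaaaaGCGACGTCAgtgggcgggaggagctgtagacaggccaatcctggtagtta

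Gpx1 and Gpx4 are selenoproteins, in which a TGA codon is read as selenocysteine at the active site. In GENCODE M21 on GRCm38 this is codon 47 of Gpx1, in exon 1 of 2, within chr9:108339421-108339483 on the plus strand. In Gpx4 it is codon 73, in exon 3 of 7, within chr10:80054707-80054769 on the plus strand. Both stretches are printed because their translation depends on the selenium machinery whose genes are counted below, and capitals mark the selenocysteine codon.
Gpx1 coding sequence: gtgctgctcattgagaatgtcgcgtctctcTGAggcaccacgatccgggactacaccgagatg
Gpx4 coding sequence: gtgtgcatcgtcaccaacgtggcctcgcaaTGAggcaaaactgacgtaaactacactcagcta

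Gclc and Gsr rose in p62S351E/+ livers, while the second ligase subunit, the synthetase, both peroxidases and Oplah were not called. Normalized counts are estimated counts scaled by the TMM factors of edgeR, and a gene was called at an adjusted p (edgeR quasi-likelihood test, Benjamini-Hochberg over 5945 genes) below 0.05 with an absolute log2 fold change above 1. Of the 10 genes, 7 passed the filter on low counts and were tested, and Ggt6, Ggct and Slc7a11 did not pass. The calls comprised 2 of the 7 tested genes as higher, beside 0.841% of all genes tested, and 0 as lower, beside 0.0841% of all. By unadjusted p below 0.05 from edgeR's quasi-likelihood test, 4 were higher (Gclc, Gsr, Gclm and Oplah), beside 9.02% of all genes tested, and 0 lower, beside 5.55% of all. DESeq2 and limma-voom also called 0 lower. The 3 p62S351E/+ mice all lay above the 3 p62+/+ mice for 4 of the 7 genes (Gclc, Gclm, Gss and Gsr), beside 12.0% of all genes tested, and below them for none, beside 14.7% of all. The median log2 fold change was 0.94 over the 7 genes (0.39 with p62S351E/+ mouse 3 alone) and -0.03 over all genes tested. Gsr met the count minimum mainly through its higher p62S351E/+ values, so these counts and this median describe the tested genes and are not offered as evidence on all 10.

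**Figure D1:**
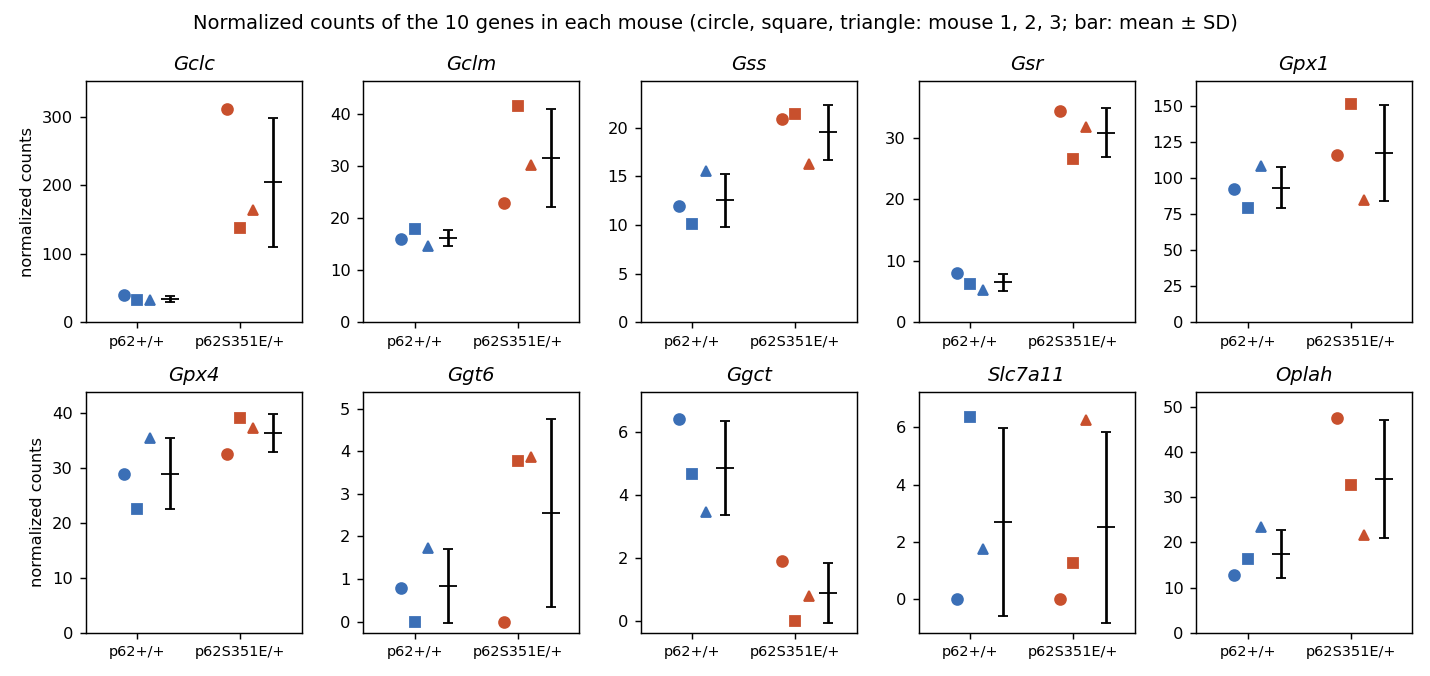
Normalized counts (linear axes, TMM-scaled estimated counts) of the 10 glutathione genes in each of 3 p62+/+ (blue) and 3 p62S351E/+ (red) mice, where symbols are mice and the bars beside them are the mean ± SD. The groups separate for Gclc, Gclm, Gss and Gsr with p62S351E/+ mice higher and for Ggct with p62S351E/+ mice lower, and they overlap for the others.

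Gclc (chromosome 9, 77754535 to 77794485 in GRCm38), the catalytic subunit of the ligase, had 39.3, 31.8 and 32 normalized counts in p62+/+ mice, against 312, 137 and 164 in p62S351E/+ mice. The groups were far apart, and the p62S351E/+ mice differed more among themselves than the p62+/+ mice did. The means were 34.4 ± 4.29 and 205 ± 94.2 normalized counts (SD, n = 3 each), which is a log2 fold change of 2.57 (standard error, SE, 0.34 and adjusted p = 0.0127 by edgeR's quasi-likelihood test), or 5.92-fold. Against the p62+/+ mean, the log2 differences of mice 1, 2 and 3 were 3.18, 2.0 and 2.26. With p62S351E/+ mouse 3 as the only mutant, the log2 fold change of Gclc was 2.26. The call was lost without p62+/+ mouse 1, 2 or 3 (adjusted p = 0.0834, 0.104 and 0.0791 in edgeR) and when library size was the only scaling (1.77, adjusted p = 0.149 in edgeR), and its adjusted p ran from 1.42e-06 (DESeq2) to 0.149 over 17 alternatives.

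Gclm (chromosome 3, 122245557 to 122270732), the modifier subunit that lowers the ligase's need for glutamate and its feedback inhibition, had 16.0, 17.9 and 14.7 normalized counts in p62+/+ mice, against 22.9, 41.6 and 30.2 in p62S351E/+ mice. The groups did not overlap. Its log2 fold change was 0.96 (SE 0.29, 95% interval 0.31 to 1.62), which was not called (adjusted p = 0.209 by edgeR's quasi-likelihood test). It was called only without p62S351E/+ mouse 3 (1.0, adjusted p = 0.0458 in edgeR), where 333 of 6390 genes tested were called higher and 975 lower. The adjusted p of Gclm ran up to 0.718 among the alternatives, and its log2 fold change was 0.90 with mouse 3 alone. Its row overlaps the gene models Gm17494 on the other strand and Gm6061, and strand use in the counting is not given in the sources used here.

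The subunits of the ligase were then set against each other within each library, a ratio that no scaling between libraries can alter. Gclc over Gclm was 2.41, 1.77 and 2.14 in p62+/+ mice, against 13.2, 3.27 and 5.38 in p62S351E/+ mice. These are ratios of counts with 0.5 added to each, not of molecules, since the transcripts differ in length. All p62S351E/+ mice exceeded all p62+/+ mice, with a log2 difference of 1.55 (exact permutation p = 0.1, two-sided, the smallest that 3 mice against 3 allow; 0.133 adjusted over 4 ratios). Leaving out each mouse in turn gave log2 differences of 1.0 to 2.01, with the lowest obtained without p62S351E/+ mouse 1.

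Gss (chromosome 2, 155563181 to 155592810, minus strand), the synthetase that completes glutathione, had 12, 10.1 and 15.5 normalized counts in p62+/+ mice, against 20.9, 21.4 and 16.3 in p62S351E/+ mice. The highest p62+/+ mouse (15.5) and the lowest p62S351E/+ mouse (16.3) differed by less than 0.864, the normalized value of 1 count in that p62+/+ mouse. The log2 fold change was 0.63 (SE 0.31, 95% interval -0.08 to 1.33), which was not called (adjusted p = 0.381 by edgeR's quasi-likelihood test) and was 0.39 with p62S351E/+ mouse 3 alone. Gss over Gclc was 0.313, 0.325 and 0.493 in p62+/+ mice, against 0.0699, 0.160 and 0.101 in p62S351E/+ mice. The second enzyme of synthesis was thus lower relative to the first in every p62S351E/+ mouse, by a log2 difference of -1.82 (exact permutation p = 0.1, adjusted 0.133). Gss overlaps Acss2 on the other strand.

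Slc7a11 (chromosome 3, 49892526 to 50443614, minus strand), the cystine importer that feeds synthesis in many cell types, had 0, 8.17 and 2.02 estimated counts in p62+/+ mice, against 0, 1 and 8.08 in p62S351E/+ mice. Each genotype thus held a mouse at 0 and a mouse near 8 counts. The gene was not tested across genes, and an exact permutation test of its normalized counts gave p = 0.8. A difference in the cystine importer was not detectable at this depth.

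Gsr (chromosome 8, 33652523 to 33698163), the reductase that recycles oxidized glutathione, had 8.02, 6.21 and 5.18 normalized counts in p62+/+ mice, against 34.3, 26.5 and 31.8 in p62S351E/+ mice. The p62S351E/+ mice were close to each other and far above every p62+/+ mouse. The means were 6.47 ± 1.44 and 30.8 ± 3.99 normalized counts (SD, n = 3 each), which is a log2 fold change of 2.23 (SE 0.30, adjusted p = 0.0146 by edgeR's quasi-likelihood test), or 4.68-fold. With p62S351E/+ mouse 3 alone the log2 fold change was 2.28. The p62+/+ values rest on 6 to 10 counts, and the call was lost without p62+/+ mouse 1, 2 or 3 or p62S351E/+ mouse 1 (adjusted p = 0.0559, 0.0975, 0.0763 and 0.0586 in edgeR), and with library size as the only scaling (1.57, adjusted p = 0.417 in edgeR). The call was also lost with the replicate number as a block, and over 15 alternatives its adjusted p ran from 0.000955 to 0.417.

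**Figure D2:**
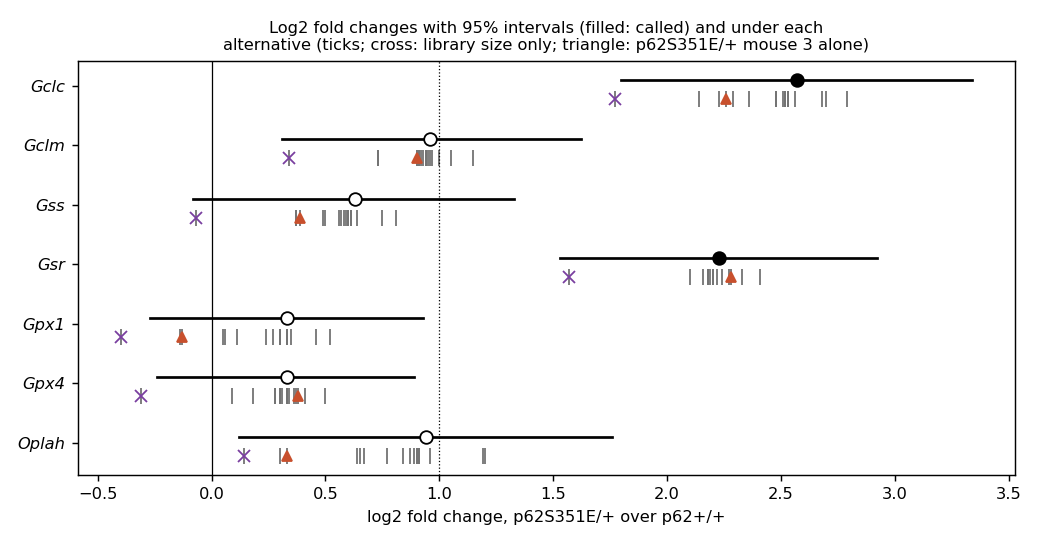
Log2 fold change of p62S351E/+ over p62+/+ for the 7 tested glutathione genes, with the 95% interval from edgeR's quasi-likelihood fit (circle and line, filled where called) and, below it, the value under each alternative (ticks), with a cross for library size as scaling and a triangle for p62S351E/+ mouse 3 as the only mutant. Gclc (2.57) and Gsr (2.23) lie apart from the others, whose log2 fold changes run from 0.33 to 0.96, and the crosses of Gss, Gpx1 and Gpx4 and the triangle of Gpx1 fall below 0.

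Gpx1 (chromosome 9, 108338903 to 108340343), the abundant cytosolic peroxidase that reduces hydrogen peroxide, had 92.3, 79.2 and 108 normalized counts in p62+/+ mice, against 116, 151 and 84.4 in p62S351E/+ mice. The groups overlapped. Its log2 fold change was 0.33 (SE 0.26, 95% interval -0.27 to 0.93, adjusted p = 0.562 by edgeR's quasi-likelihood test), and it was -0.13 with p62S351E/+ mouse 3 alone. The direction of Gpx1 therefore differed between these libraries.

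Gpx4 (chromosome 10, 80047166 to 80056439), which reduces lipid hydroperoxides in membranes and restrains ferroptosis, had 28.9, 22.5 and 35.4 normalized counts in p62+/+ mice, against 32.4, 39.1 and 37.2 in p62S351E/+ mice. The groups overlapped here too. Its log2 fold change was 0.33 (SE 0.25, 95% interval -0.24 to 0.89, adjusted p = 0.549 by edgeR's quasi-likelihood test), and it was 0.38 with p62S351E/+ mouse 3 alone. Both intervals end below a doubling of either peroxidase transcript, which would be a log2 fold change of 1. When libraries were scaled by size alone, which shifts the median of all genes to -0.68, the log2 fold changes were -0.40 for Gpx1, -0.31 for Gpx4 and -0.07 for Gss. Relative to that median they were 0.28, 0.37 and 0.61, while Gclc was at 2.45 and Gsr at 2.25.

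The reductase was also read against the peroxidase it serves. Gsr over Gpx1 was 0.0909, 0.0829 and 0.0518 in p62+/+ mice, against 0.301, 0.178 and 0.379 in p62S351E/+ mice. The ratio was higher in every p62S351E/+ mouse, by a log2 difference of 1.90 (exact permutation p = 0.1, adjusted 0.133), and by 1.65 to 2.21 with each mouse left out in turn. In contrast, Gpx1 over Gpx4 was 3.16, 3.47 and 3.02 in p62+/+ mice, against 3.51, 3.83 and 2.26 in p62S351E/+ mice. These groups overlapped, with a log2 difference of -0.04 (exact permutation p = 1).

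**Figure D3:**
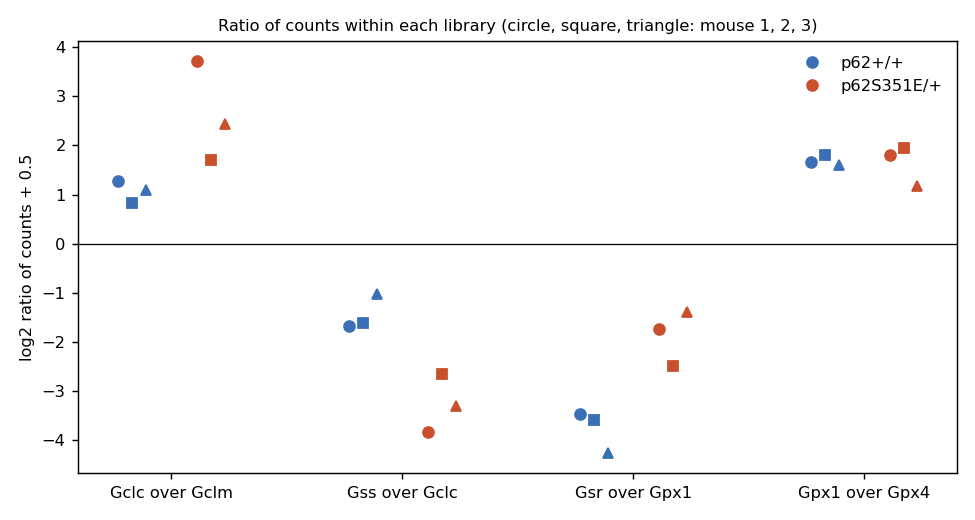
Within-library count ratios on a log2 axis for 4 pairs of glutathione genes in 3 p62+/+ and 3 p62S351E/+ mice, where symbols are mice. Gclc over Gclm and Gsr over Gpx1 are higher and Gss over Gclc lower in all p62S351E/+ mice, while Gpx1 over Gpx4 overlaps between the groups.

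Ggct, Oplah and Ggt6 belong to the breakdown and salvage steps of the gamma-glutamyl cycle. Ggct (chromosome 6, 54982580 to 54992950, minus strand), a cyclotransferase that acts on gamma-glutamyl dipeptides, had 8, 6 and 4 counts in p62+/+ mice, against 1, 0 and 1 in p62S351E/+ mice. Its normalized counts were 6.42, 4.66 and 3.45 against 1.90, 0 and 0.775, so the groups did not overlap, with p62S351E/+ mice lower (exact permutation p = 0.1). The 0 in p62S351E/+ mouse 2 allows up to 3.78 normalized counts (3 counts), which is above the lowest p62+/+ mouse. Fitted without the filter on low counts, the log2 fold change was -2.49 (SE 0.89), which was not called (adjusted p = 0.349 by edgeR's quasi-likelihood test).

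Oplah (chromosome 15, 76296601 to 76328015, minus strand), which opens oxoproline to glutamate and so returns it to synthesis, had 12.7, 16.3 and 23.3 normalized counts in p62+/+ mice, against 47.6, 32.6 and 21.7 in p62S351E/+ mice. Only p62S351E/+ mouse 3 fell within the p62+/+ range. The log2 fold change was 0.94 (SE 0.36, 95% interval 0.12 to 1.76, adjusted p = 0.296 by edgeR's quasi-likelihood test). It was 1.19 and called without mouse 3 (adjusted p = 0.0221 in edgeR), where 333 of 6390 genes tested were called higher and 975 lower. It was 0.33 with mouse 3 alone. The adjusted p of Oplah ran from 0.0221 to 0.986 over 16 alternatives. Mouse 3 was also the p62S351E/+ library with brain transcripts, and the part of these in the Oplah result was not tested. In a fit with the brain markers as a covariate, Oplah was at 0.30, Gclc at 2.23 and Gsr at 2.27. The markers held 3 and 6 counts in p62S351E/+ mice 1 and 2, and so nearly set these libraries apart. That fit therefore rests mainly on p62S351E/+ mouse 3 against the p62+/+ mice and is no separate test of the brain transcripts. Oplah overlaps Smpd5 and Exosc4 on the other strand.

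Ggt6 (chromosome 11, 72435526 to 72438400), a member of the gamma-glutamyltransferase family, had 1, 0 and 2 counts in p62+/+ mice, against 0, 3 and 5 in p62S351E/+ mice. It was close to the detection limit in every liver. The groups overlapped (exact permutation p = 0.4 for normalized counts).

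The levels of the genes were ordered per kilobase of the principal GENCODE transcript. In p62+/+ mice Gpx1 was highest at 86.9 normalized counts per kb (range 73.9 to 101) and Gpx4 followed at 30.2 (23.5 to 36.9). Gclc came next at 10 normalized counts per kb (9.30 to 11.5), then Gss at 6.40 (5.14 to 7.92), Oplah at 4.28 (3.12 to 5.71), Gclm at 2.90 (2.63 to 3.19) and Gsr at 2.42 (1.94 to 3.0). The ranges of Gss and Oplah overlapped, as did those of Oplah with Gclm and of Gclm with Gsr, so Gpx1, Gpx4, Gclc and the genes below them were separated by the spread over mice, but the order from Gss to Gsr was not. Below them, Ggct was at 1.22 normalized counts per kb, and Ggt6 (0.464) and Slc7a11 (0.292) were last.

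In p62S351E/+ mice the same order by level read Gpx1 (109 normalized counts per kb, range 78.8 to 141), Gclc (59.8, range 40.1 to 91.2), Gpx4 (37.8, range 33.8 to 40.7) and Gsr (11.5, range 9.90 to 12.8). Gclc thus moved from the third place to the second, where its range overlapped those of both peroxidases, and Gsr from the seventh to the fourth, where it overlapped Gss (9.96, range 8.29 to 10.9) and Oplah (8.33, range 5.32 to 11.7). Gclm at 5.64 (range 4.09 to 7.44) stayed in the lower part of the order.

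The 5 tested genes whose pattern over the 6 mice was most like that of Gclc, by the root mean square difference of centred log2 normalized counts, were Colec12 (0.288), Cyp2c37 (0.384), Lepr (0.392), Rdh16 (0.411) and Blvrb (0.415). Colec12 encodes a scavenger receptor, Cyp2c37 a cytochrome P450, Lepr the leptin receptor, Rdh16 a retinol dehydrogenase and Blvrb biliverdin reductase B. Their log2 fold changes, from 2.04 to 2.41, follow from the choice by likeness to Gclc and are no further result. Colec12 had 5.62, 3.11 and 4.32 normalized counts in p62+/+ mice, against 30.5, 20.2 and 20.1 in p62S351E/+ mice.

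Other genes of the glutathione cycle, with some transporters, thioredoxin reductases and a selenoprotein, were counted from a list of 27 genes. Of these, 12 were tested, and 1 was called higher and 0 lower by edgeR's quasi-likelihood test, beside 0.841% and 0.0841% of all genes tested. By unadjusted p below 0.05 in that test, 4 were higher and 0 lower, beside 9.02% and 5.55% of all. DESeq2 called 0 higher and 0 lower, and limma-voom 2 higher and 0 lower. Among all genes they called 57 of 1814 and 122 of 5945 higher. The median log2 fold change of the list was 0.12. The called gene was Esd, an esterase that splits S-formylglutathione, with 12.8, 16.3 and 12.1 normalized counts in p62+/+ mice, against 43.8, 42.8 and 31.0 in p62S351E/+ mice. Its groups were well separated, and its log2 fold change was 1.5 (SE 0.27, adjusted p = 0.0484 by edgeR's quasi-likelihood test), although it was called in only 6 of 17 alternatives (adjusted p from 0.00156 to 0.424), and it was 1.17 with p62S351E/+ mouse 3 alone. The call was lost when any p62+/+ mouse, p62S351E/+ mouse 1 or p62S351E/+ mouse 2 was left out. Among the most abundant genes of this list, Txnrd1 (thioredoxin reductase) was at 1.17 (SE 0.26), Prdx6 (a peroxiredoxin that uses glutathione) at 0.77 (0.22), Selt (Selenot, a selenoprotein) at 0.13 (0.30) and Glo1 (glyoxalase) at -0.00 (0.34) on the log2 scale, none of them called. With p62S351E/+ mouse 3 alone they were at 1.03, 0.50, 0.10 and -0.31, and the median of the list was 0.16.

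For the supply of cysteine through methionine and transsulfuration, 11 of 14 genes were tested and 0 were called in either direction by edgeR's quasi-likelihood test (6 higher and 0 lower by unadjusted p below 0.05, beside 9.02% and 5.55% of all genes tested). DESeq2 called Mat1a and Gnmt higher, and limma-voom called Mat1a, Gnmt and Ahcy. Among all genes, DESeq2 called 57 of 1814 higher and limma-voom 122 of 5945. The median log2 fold change was 0.84, with 10 of the 11 values positive, beside 2856 of 5945 for all genes tested. The list also holds genes that use up cysteine or homocysteine, such as Cdo1 and Bhmt, so its median is no measure of cysteine supply. Of the transsulfuration enzymes, Cbs was at 0.23 (SE 0.29) and Cth at 0.89 (SE 0.48), neither was called, and the groups overlapped for both. Mat1a, which makes S-adenosylmethionine in liver, was at 1.45 (SE 0.30), Bhmt, which remethylates homocysteine, at 1.46 (0.42), Ahcy at 1.12 (0.26) and Cdo1, which degrades cysteine, at 0.84 (0.23). With p62S351E/+ mouse 3 alone they were at 0.86, 0.61, 0.76 and 0.48. Without p62S351E/+ mouse 3, 6 genes of this list were called higher (Mat1a, Gnmt, Ahcy, Cth, Cdo1 and Bhmt). In that fit 333 of 6390 genes tested were called higher and 975 lower. With mouse 3 alone the median of this list was 0.47. The median over the 10 hepatocyte markers was 0.28, and -0.02 with mouse 3 alone. Of them 0 were called in the full comparison (3 higher and 0 lower by unadjusted p below 0.05 in edgeR, 0 called by DESeq2 and 1 by limma-voom). Without mouse 3, 4 were called higher, beside the same 333 of 6390 genes. The part of cell composition was not tested.

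For selenoprotein synthesis, on which Gpx1 and Gpx4 depend, 6 of 8 genes were tested and 0 were called in either direction by edgeR's quasi-likelihood test (2 higher and 0 lower by unadjusted p below 0.05, beside the same shares), with a median of 0.29. DESeq2 and limma-voom each called Sepp1 higher, where they called 57 of 1814 and 122 of 5945 genes higher among all. Sepp1, the selenium carrier secreted by hepatocytes, was at a log2 fold change of 1.27 (SE 0.26, adjusted p = 0.0803 in edgeR), Sephs2, which makes selenophosphate, at 0.69 (0.24), Scly at 0.69 (0.39) and Sars at -0.33 (0.27). With p62S351E/+ mouse 3 alone they were at 0.76, 0.31, 0.83 and -0.16, and the median of the list was 0.07. Sepp1 alone of this list was called without p62S351E/+ mouse 3, where 333 of 6390 genes tested were called higher and 975 lower.

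**Figure D4:**
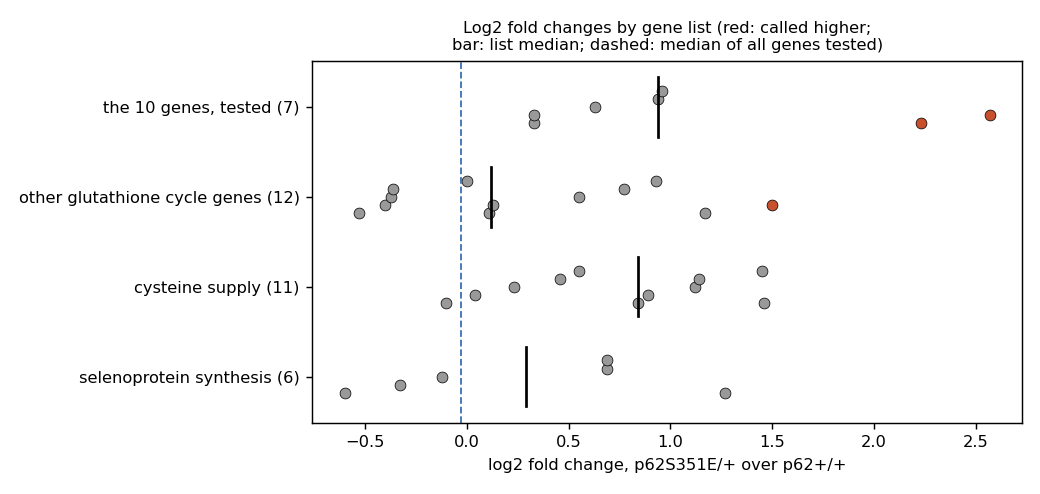
Log2 fold change of p62S351E/+ over p62+/+ for each tested gene of the 10 glutathione genes and of 3 related lists, with the list median as a bar, called genes in red and the median of all genes tested (-0.03) as a dashed line. Called genes are Gclc and Gsr among the 10 and Esd among the other glutathione cycle genes, and the medians are 0.94, 0.12, 0.84 (cysteine supply) and 0.29 (selenoprotein synthesis).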

How the data were processed

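The authors extracted total liver RNA, depleted ribosomal RNA, sequenced 75-base single-end reads, mapped them to mm10 with STAR and deposited estimated counts per gene from RSEM, without normalization. Trim Galore and DESeq2 are also named in the submitters' processing notes, and versions, annotation and strand setting were not given in the sources used here. RSEM divides shared reads, and 6.45% of nonzero values were not whole (by over 0.001).

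Estimated counts were rounded, filtered by filterByExpr (minimum count 10), scaled by TMM and tested with edgeR 4.0.16 (glmQLFit, robust, legacy = FALSE, which gives fewer calls than the legacy method) in R 4.3.3, adjusted by Benjamini-Hochberg over 5945 genes. Genes were called at adjusted p below 0.05 and absolute log2 fold change above 1. Limma 3.58.1 (voom), DESeq2 1.42.0, other scalings and filters, a replicate block, Xist and brain-marker covariates (the last chosen after seeing the data) and left-out mice were alternatives. Ratios used counts plus 0.5 and exact two-sided permutation tests. Levels per kb used the principal GENCODE M21 transcript. The edgeR, DESeq2 and limma-voom fits were checked on simulated data, but the permutation tests were not. The simulation did not include the difference in brain transcripts between these libraries.

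The named genes were the 10 glutathione genes, called genes of the 3 related lists and up to 4 per list by level, the transsulfuration enzymes Cbs and Cth, and the 5 genes most like Gclc. The genes and lists were chosen with earlier results of these data known. The labels do not say that the samples are separate litters, so p-values measure only the spread between these 6 mice. Floors of 3 counts and intervals of single counts cover counting error only.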

Additional observations from a re-analysis of the deposited data

How the results depend on the processing

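Gclc and Gsr kept their direction in every alternative that gave a value, and Gclc, Gclm, Gsr and Oplah were never reversed. The number of the 10 genes called higher, 2 in the reported comparison, was 1 with DESeq2 (which gave an adjusted p for 3 of them and none for Gsr), 0 with library size as the only scaling, 1 with at least 10 counts in every library (Gsr was not tested there) and 0 to 4 with each mouse left out in turn. Among all genes, the 50 higher became 122 with limma-voom, 12 with library size only, 79 without a filter, 27 with Xist and 29 with brain markers as a covariate, and 16 to 333 with each mouse left out. The 5 lower became 11 with DESeq2, 13 with limma-voom, 8 with the legacy method, 2 with library size only, 10 without a filter, 29 with at least 10 counts in every library, 2 with either covariate, 23 with p62S351E/+ mice 1 and 2 left out together (the spread there comes from the p62+/+ mice alone, and p62S351E/+ mouse 3 is assumed to vary like them), and 1 to 975 with each mouse left out, where 333 and 975 were reached without p62S351E/+ mouse 3. Log2 fold changes reversed for Gss (-0.07), Gpx1 (-0.40) and Gpx4 (-0.31) with library size only, and for Gpx1 with brain markers as a covariate (-0.14) and with p62S351E/+ mouse 3 alone (-0.13). The fit with brain markers also rests mainly on p62S351E/+ mouse 3 against the p62+/+ mice, so it and the fit of mouse 3 alone are not separate checks. The log2 difference of Gpx1 over Gpx4 ran from -0.19 to 0.19 with each mouse left out. The cause of these changes was not tested.

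Mice that share a replicate number are different animals, and their deviations from the group means correlated at 0.08, -0.09 and -0.00 across genes. For mice with unlike numbers the correlations ran from -0.10 to 0.10. The numbers thus showed no pairing by this measure, which cannot exclude a shared litter or batch. With the replicate block, 18 genes were higher and 1 lower, and 1 of the 10 (Gclc) was called; the adjusted p of Gsr was 0.0957 in edgeR. Depth limits Ggct, Ggt6 and Slc7a11, which had at most 8.17 counts in any mouse.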

Other observations

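Several enzymes related to the 10 genes were too low for testing and are given as counts, chosen after their values were seen. Ggt1, the main gamma-glutamyltransferase, had 0, 0 and 0 counts in p62+/+ mice, against 4, 1 and 6 in p62S351E/+ mice. Chac1, which cleaves glutathione inside the cell, had 5, 3 and 2 counts in p62+/+ mice, against 0, 0 and 3 in p62S351E/+ mice. Ggt7 had 6, 11 and 13 counts in p62+/+ mice, against 0, 0 and 8 in p62S351E/+ mice. For Chac1 and Ggt7 the mice at 0 were p62S351E/+ mice 1 and 2, the same libraries that held 3 and 6 counts of the brain markers, and the part of the brain transcripts was not tested. Gpx8, an endoplasmic reticulum peroxidase, had 1, 2 and 2 counts in p62+/+ mice and 0 in each p62S351E/+ mouse. A 0 allows up to 3 counts, which is 5.71, 3.78 and 2.32 normalized counts in p62S351E/+ mice 1, 2 and 3. The p62+/+ values of Gpx8 (0.802, 1.55 and 1.73) lie below all of these, so a difference was not detectable. For Ggt1, a 0 in the p62+/+ mice allows up to 2.41, 2.33 and 2.59, above the 1.26 of p62S351E/+ mouse 2.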
